A study of Mus musculus with 10 samples.

Results

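Potassium channels are membrane proteins that let potassium ions leave a cell and so pull its voltage down. Mouse genes for their pore and auxiliary subunits have symbols that begin with Kcn. Of 99 genes and transcripts with such a symbol among the 52178 genes of the deposited table, the KATP pore gene Kcnj11 and 5 antisense or overlapping transcripts were left out, which gave 93 candidates. The 60 members described here are the candidates with at least 10 counts in 3 or more of the 10 libraries. The libraries were made from hand-picked pancreatic islets of male C57Bl/6 mice, all retired breeders, after collagenase digestion and plating in medium with 11 mM glucose. The sedentary group (sedentary 1 to 5) did not train. The exercise group (exercise 6 to 10) ran on a treadmill for 1 h a day, 5 days a week, over 2 weeks, at 17 cm/s up a 5 degree incline, after 3 days of getting used to it. The labels tie no library to an animal, and the tests therefore speak only of the variation among these libraries, part of which may be technical.

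In a beta cell, closure of KATP channels by glucose depolarizes the membrane, calcium enters and insulin is released. Voltage-gated, calcium-activated and leak potassium channels then repolarize the cell and shape each burst of firing. In gut and stomach epithelium, other members of the same gene family return potassium across the membrane so that chloride or acid secretion can go on.

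The libraries differed in which cells had given their RNA, and the members were read against that. Levels are given as CPM, the read count relative to the library's size after TMM scaling. A list of 10 pan-endocrine genes, such as the granins, summed to 1130 CPM in sedentary 1 and 4550 in sedentary 2, against 14300 to 18700 in sedentary 3 to 5 and 17300 to 21700 in the exercise libraries. A list of 14 small intestinal genes summed to 14800 and 20200 CPM in sedentary 1 and 2, 3170 to 4110 in sedentary 3 to 5 and 181 to 739 in exercise, and all 14 fell. A list of 12 acinar genes, of the enzyme-secreting pancreas, summed to 65600 to 136000 CPM in sedentary and 154000 to 421000 in exercise libraries, and 6 of the 12 rose. The highest acinar sum was that of exercise 9. A list of 6 pancreatic duct genes summed to 528 and 1100 CPM in sedentary 1 and 2, 207 to 305 in sedentary 3 to 5 and 156 to 299 in exercise, and 2 of the 6 fell. Stomach genes summed to 5800 CPM in sedentary 1, 1630 in sedentary 2 and 225 to 712 in the other 8 libraries. Of these sums, Tff2 alone had 1570 CPM in sedentary 2 and 221 to 698 in the other 8, but 313 in sedentary 1. The next stomach gene in sedentary 2, Pgc, had 43.4 CPM there and 2840 in sedentary 1. Each gene of these lists that the table held had counts in at least 1 library. In bulk RNA, fewer cells of a type and less RNA per cell cannot be told apart. Because sedentary 1 and 2 stand apart, results are given with and without them.

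Most members were lowest in the libraries with the least endocrine RNA. In 35 of the 55 members that could be tested, or 63.6%, sedentary 1 and 2 were the lowest pair of the 10 libraries, against 27.2% of all tested genes. In 7 members, or 12.7%, they were the highest pair, against 29.4% of all tested genes. These 7 were Kcnk5, Kcnk6, Kcnk10, Kcnq1, Kcne3, Kcnn4 and Kcnj2, of which Kcnk6 and Kcnj2 are named only for this count. The heat map of 58 of the 60 members shows both patterns as a blue and a red pair of columns on the left.

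**Figure D1:**
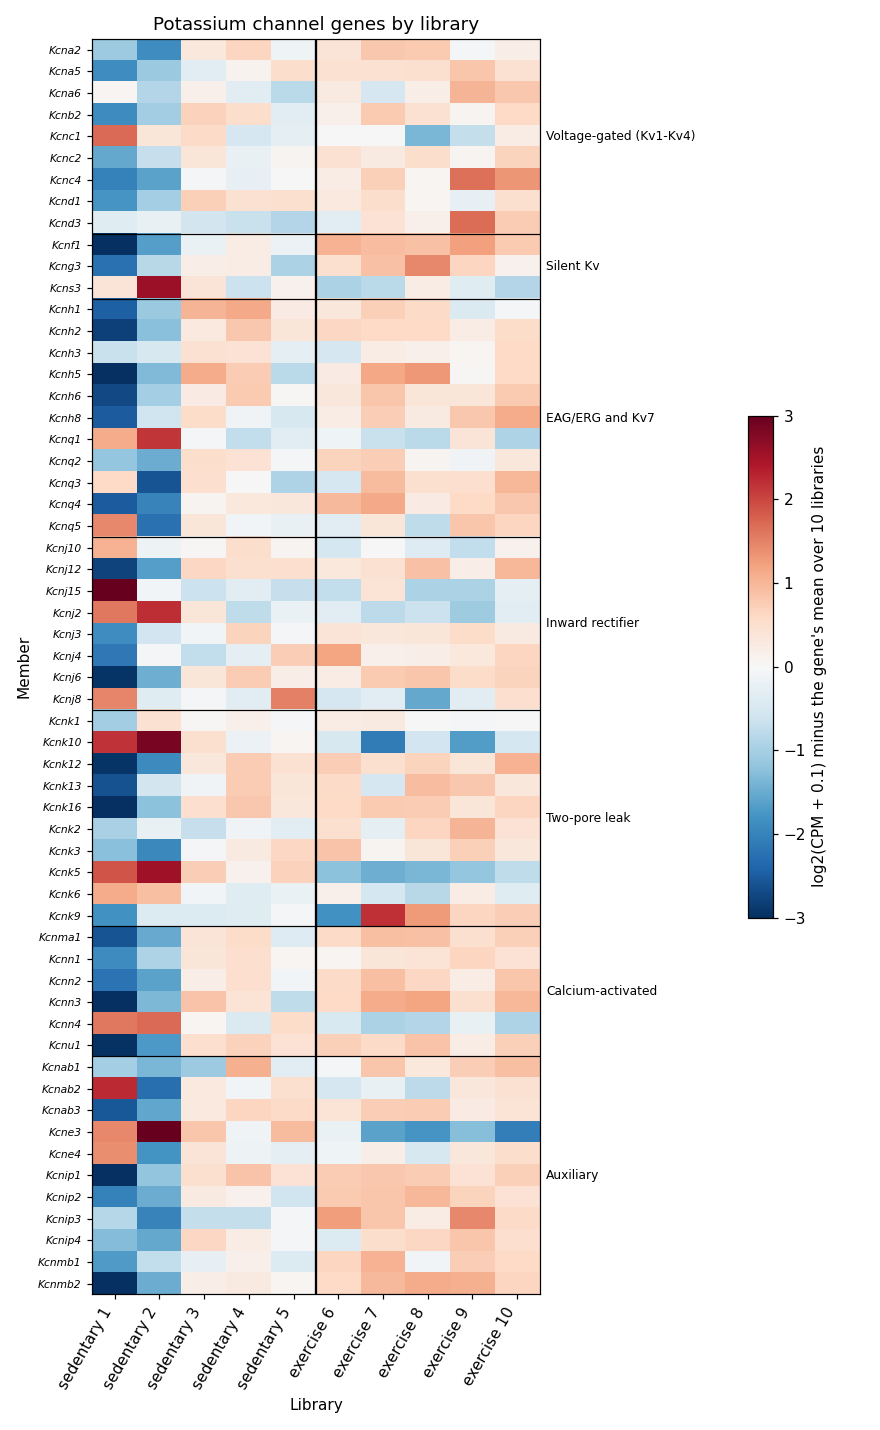
Each row is 1 of 58 of the 60 members and each column 1 library, with sedentary libraries left of the black line and colour for log2(CPM + 0.1) minus the member's mean. Of the 55 tested members 53 are drawn. Over all 55, drawn or not, sedentary 1 and 2 are the lowest pair for 35 and the highest pair for 7.

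Exercise and sedentary islets were compared with the quasi-likelihood test of edgeR over all 15298 genes that passed its filter, with Benjamini-Hochberg adjustment and a threshold of 0.05. The filter left 55 of the 60 members. Of these, Kcnip3 and Kcnd3 rose (3.64%, against 2.44% of all tested genes), and Kcnk5, Kcne3, Kcnk10 and Kcnn4 fell (7.27%, against 11.4% of all tested genes). The other 49 did not pass, and 15 members in all (27.3%) had an unadjusted p under 0.05, against 33.4% of all tested genes. The tested members had a median log2 fold change of 0.67, and all tested genes one of 0. Without sedentary 1 and 2 the median of 57 tested members was 0.18 and that of all genes 0.03. In those 8 libraries Kcnip3, Kcnf1, Kcnmb2 and Kcnip2 were higher (7.02%, against 4.1% of all genes) and Kcnk5 and Kcne3 lower (3.51%, against 8.68% of all genes). Kcnip3, Kcnk5 and Kcne3 passed in both sets of libraries. The remaining 5 members, Kcnk2, Kcnk9, Kcnj4, Kcnj8 and Kcne4, were too low to be tested with all libraries, at 1.66 CPM or less in each library. For 9 members, at least 1 group had fewer than 3 libraries with 10 counts. These were Kcng3, the 5 untested members, and Kcnab1, Kcnmb1 and Kcns3, which are named only for this. Of them, Kcng3, Kcnmb1 and Kcns3 are among the 15 with an unadjusted p under 0.05. Kcng3 and Kcnmb1 are also among the members that DESeq2 called higher. Their place among the members rests on the group where they are high, so these results do not count as support. DESeq2 called 7 members higher and 5 lower of 59 with an adjusted p, against 966 and 2835 of 19633 genes. With limma-voom, Kcnip3 alone passed (limma adjusted p = 0.0462), and Kcnk5 had an adjusted p of 0.0534.

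**Figure D2:**
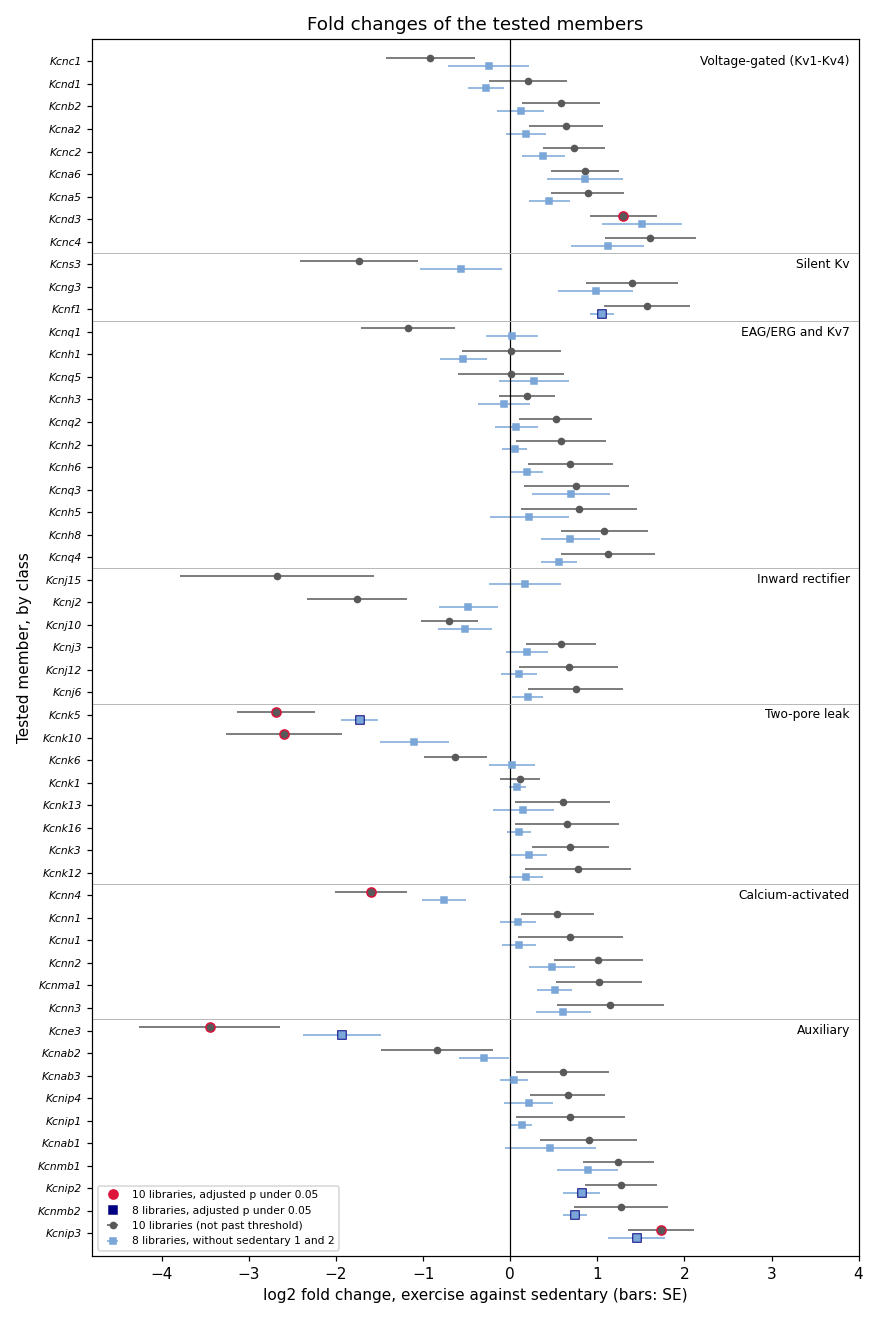
Log2 fold changes of exercise against sedentary libraries for 53 of the 55 tested members by class, with bars for the SE, for all 10 libraries (grey circles) and the 8 without sedentary 1 and 2 (blue squares). Red circles and dark squares mark an edgeR adjusted p under 0.05, which 2 members passed upward and 4 downward in all 10 libraries.

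The leak channels of the tandem-pore family held the member of highest level and the fall with the smallest p. Kcnk16 (ENSMUSG00000023387) encodes a leak channel of beta cells. It had 14.1, 71.7, 241, 296 and 216 CPM in sedentary 1 to 5 and 256, 291, 288, 219 and 264 CPM in exercise 6 to 10. Sedentary 1 and 2 were far below the other 8 libraries, which overlapped between the groups. Its log2 fold change was 0.65 ± 0.60 (SE, edgeR adjusted p = 0.431), and 0.10 without sedentary 1 and 2. Per kilobase of transcript, Kcnk16 had the highest level of all members in the exercise group, 173 ± 19.1 CPM per kilobase (SD, n = 5).

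Kcnk5 (ENSMUSG00000023243) encodes an acid-sensitive leak channel of kidney and other epithelia. It had 22.2, 34.8, 9.98, 6.48 and 9.64 CPM in the sedentary libraries and 2.46, 2.08, 2.24, 2.58 and 3.42 CPM in the exercise libraries. All exercise libraries were below all sedentary libraries, with or without sedentary 1 and 2. It fell by 2.69 on the log2 scale (SE 0.45, edgeR adjusted p = 0.00900), and by 1.73 without those libraries (edgeR adjusted p = 0.00128). The call held with each library left out in turn, with log2 fold changes between -2.90 and -2.23. Its levels were ordered over the libraries like the intestinal sums, with sedentary 2, 1, 3, 5 and 4 and then exercise 10 highest to lowest in both, except that exercise 9 came lowest in the intestinal sums and next after exercise 10 for Kcnk5. The parts of intestinal and duct RNA in the fall were not tested.

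The leak channel genes Kcnk16 and Kcnk5 both lie on the minus strand of chromosome 14. Outside sedentary 1 and 2, Kcnk16 levels overlapped between the groups and Kcnk5 levels did not. Their upstream windows are shown because sedentary 1 and 2 were the lowest pair for Kcnk16 and the highest pair for Kcnk5. Each is the 250 bases before the RefSeq start (GRCm38.p6), 5′ to 3′, with capitals for GGGCGG, the GC box, on either strand.
Kcnk16 (chr14:20269270-20269519, minus strand): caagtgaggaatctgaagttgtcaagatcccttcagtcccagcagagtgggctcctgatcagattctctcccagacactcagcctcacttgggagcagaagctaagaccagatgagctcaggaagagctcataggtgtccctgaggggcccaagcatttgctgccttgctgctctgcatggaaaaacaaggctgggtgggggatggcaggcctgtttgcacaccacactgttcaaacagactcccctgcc
Kcnk5 (chr14:20181783-20182032, minus strand): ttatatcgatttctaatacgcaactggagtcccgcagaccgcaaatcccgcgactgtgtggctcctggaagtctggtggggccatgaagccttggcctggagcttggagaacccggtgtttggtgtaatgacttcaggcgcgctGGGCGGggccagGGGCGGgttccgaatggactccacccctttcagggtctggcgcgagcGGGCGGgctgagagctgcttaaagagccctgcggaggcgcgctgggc
The Kcnk16 window held 0 CpG pairs and none of the motifs searched, and the Kcnk5 window 19 CpG pairs and 3 GC boxes. Windows were found for 45 of the 60 members, 66 windows in all, since some genes have several starts. They held a median of 8 CpG pairs, against 6 over all 32851 windows of the table. The GC box was in 42.4% of member windows and 32.7% of all windows, and TATAAA in 0 of 66 member windows and 12.4% of all. The cAMP response element TGACGTCA was in 0 of 66 member windows and 1.55% of all. These matches describe letters and not binding.

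Kcnk10, a leak channel opened by stretch and fatty acids, had 10.6, 17.1, 3.27, 2.03 and 2.40 CPM in sedentary and 1.62, 0.456, 1.5, 0.644 and 1.56 CPM in exercise libraries. The groups did not overlap, and sedentary 1 and 2 were again the highest. It fell by 2.60 ± 0.67 (log2, with its SE; edgeR adjusted p = 0.0313) and did not pass without sedentary 1 and 2 (log2 fold change -1.10, edgeR adjusted p = 0.107). It no longer passed when sedentary 1, sedentary 2 or any of the 5 exercise libraries was left out (highest edgeR adjusted p = 0.0829). Kcnk1, a widely expressed weak leak channel, did not pass, at 10.8 to 30.3 CPM in sedentary and 21.8 to 26.8 in exercise libraries (log2 fold change 0.11 ± 0.23 SE, edgeR adjusted p = 0.730). Kcnk3, an acid-sensitive leak channel, had 1.37 to 8.62 and 5.86 to 10.1 CPM (edgeR adjusted p = 0.280). Of 8 tested genes of this class 0 rose and 2 fell, against 2.44% and 11.4% of all tested genes. In classes this small, 1 or 2 calls do not set a class apart from all genes.

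Among auxiliary subunits, Kcne3 fell and Kcnip3 rose. Kcne3 (ENSMUSG00000035165) encodes the small partner that keeps the Kcnq1 channel open in intestinal crypt cells. It had 6.16, 32.1, 3.94, 2.03 and 4.31 CPM in sedentary and 1.90, 0.651, 0.575, 0.837 and 0.439 CPM in exercise libraries. Sedentary 2, the library with the highest intestinal sum, was 5 times or more above every other library, and the groups did not overlap. It fell by 3.45 on the log2 scale (SE 0.81, edgeR adjusted p = 0.0213). Without sedentary 1 and 2 the fall was 1.93 (edgeR adjusted p = 0.0209), so that the log2 fold change was over 1.5 times larger with them. Leaving out exercise 7, 8, 9 or 10 alone ended the call (edgeR adjusted p up to 0.0612). The pore gene Kcnq1 had 27.8, 56.6, 12.3, 7.65 and 10.3 CPM in sedentary and 6.74 to 16.7 CPM in exercise libraries. It did not pass (log2 fold change -1.18, edgeR adjusted p = 0.154), and without sedentary 1 and 2 the log2 fold change came to 0.02. Within each library, the ratio of Kcne3 to Kcnq1 counts was 0.221 to 0.566 in sedentary and 0.05 to 0.161 in exercise, with no overlap. Ratios of counts given here were chosen after levels had been seen and were not tested.

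Kcnn4 encodes the calcium-activated channel of intermediate conductance, found in secretory epithelia, red cells and lymphocytes. It had 24.6, 26.9, 8.49, 6.05 and 12 CPM in sedentary and 5.92, 4.17, 4.37, 6.96 and 4.25 CPM in exercise libraries. Exercise 9 was above sedentary 4, so the groups overlapped. It fell by 1.6 on the log2 scale (SE 0.41, edgeR adjusted p = 0.0300). Kcnn4 did not pass in the 8 libraries without sedentary 1 and 2 (log2 fold change -0.76, edgeR adjusted p = 0.0779). Nor did it when sedentary 1, sedentary 2 or any exercise library was left out singly (edgeR adjusted p up to 0.0789). Kcnk5, Kcne3, Kcnk10, Kcnn4 and Kcnq1 shared their peak in sedentary 1 and 2, the libraries of most intestinal and duct RNA, whose part in these levels was not tested. The windows of Kcne3, at the second of its 2 starts, and Kcnn4 are shown because both genes fell, as Kcnk5 did. Capitals mark GGGCGG or its reverse CCGCCC and, in Kcnn4, the E-box CACGTG, which 6.02% of all windows held.
Kcne3 (chr7:100178433-100178682, plus strand): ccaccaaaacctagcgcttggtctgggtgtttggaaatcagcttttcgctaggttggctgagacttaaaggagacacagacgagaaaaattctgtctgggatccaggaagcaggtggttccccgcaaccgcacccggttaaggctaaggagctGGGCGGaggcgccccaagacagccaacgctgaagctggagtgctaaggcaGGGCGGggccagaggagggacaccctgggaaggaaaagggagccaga
Kcnn4 (chr7:24370013-24370262, plus strand): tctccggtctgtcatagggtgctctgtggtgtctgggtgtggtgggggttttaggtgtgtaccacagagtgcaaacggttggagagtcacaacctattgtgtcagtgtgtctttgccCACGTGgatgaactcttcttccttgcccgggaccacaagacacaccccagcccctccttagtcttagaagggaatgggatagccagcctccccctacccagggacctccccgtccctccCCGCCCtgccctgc
The other Kcne3 window held 3 CpG pairs and none of the motifs searched, and the windows of Kcnk10, which also fell, are not shown. The HNF4 letters CAAAGT, sought on both strands, were in 4.55% of member windows and 12.6% of all.

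**Figure D3:**
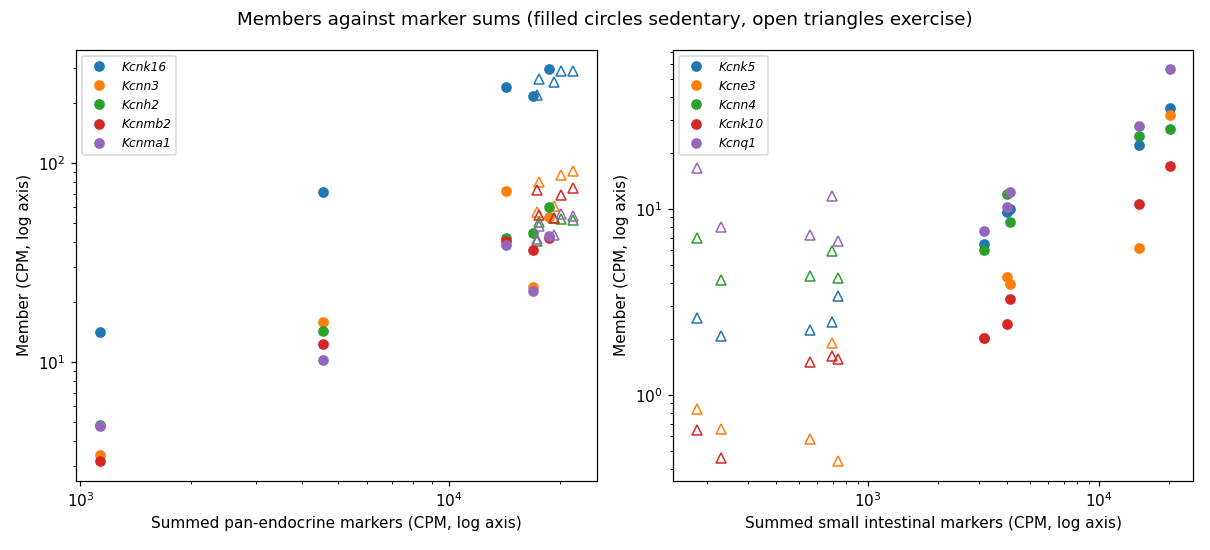
Level of 5 members (left) and 5 members (right) against the summed CPM of pan-endocrine and small intestinal markers, both axes in CPM on a log scale, with 1 point per member and library. Each member drawn on the left has its lowest pair in sedentary 1 and 2, and each on the right its highest pair. Members with neither, such as Kcnk1, are not drawn. Sedentary 1 and 2 lie at the left end of the endocrine axis, at 1130 and 4550 CPM, and at the right end of the intestinal axis, at 14800 and 20200 CPM.

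Kcnip3 (ENSMUSG00000079056) encodes a calcium-binding protein that partners Kv4 channels and is also known as the transcriptional repressor DREAM. It had 1.20, 0.491, 1.33, 1.34 and 2.20 CPM in sedentary and 5.48, 4.10, 2.65, 6.31 and 3.42 CPM in exercise libraries. Every exercise library was above every sedentary library. It rose by 1.73 ± 0.38 on the log2 scale (SE, edgeR adjusted p = 0.0172), and by 1.45 without sedentary 1 and 2 (edgeR adjusted p = 0.0186). The call held with each library left out in turn (highest edgeR adjusted p = 0.0491). With the pan-endocrine list as library size, its log2 fold change was -0.15 over 10 libraries and 1.25 over the 8 (edgeR adjusted p = 0.866 and 0.0541). The median of all genes with that scaling was -2.25 and -0.21. The highest Kcnip3 levels were in exercise 9 and 6, which also had the highest acinar sums, 421000 and 256000 CPM, and a part of acinar RNA in the rise was not tested. The window at the third of the 3 Kcnip3 starts, with 23 CpG pairs and 1 GC box in capitals, is shown because it is the richest in CpG pairs of the windows of this gene. The other 2 windows held 4 and 2 CpG pairs and no GC box.
Kcnip3 (chr2:127482500-127482749, minus strand): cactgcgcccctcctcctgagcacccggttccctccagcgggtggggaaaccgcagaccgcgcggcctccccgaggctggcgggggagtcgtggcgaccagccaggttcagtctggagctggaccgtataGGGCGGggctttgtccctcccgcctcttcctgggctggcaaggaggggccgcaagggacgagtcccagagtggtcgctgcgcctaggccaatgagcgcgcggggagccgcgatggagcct
Non-overlap of the groups, with exercise higher, was seen in 5 tested members (9.09%, against 6.24% of all tested genes), namely Kcnip3, Kcnip2, Kcnmb2, Kcnf1 and Kcnc4. With exercise lower it was seen in Kcnk5, Kcne3 and Kcnk10 (5.45%, against 11.4%).

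Kcnip2, another Kv4 partner, was named after its values were seen. It had 1.25, 1.86, 6.54, 5.92 and 3.57 CPM in sedentary and 9.50, 9.70, 11.0, 8.76 and 7.42 CPM in exercise libraries. It did not pass with all libraries (log2 fold change 1.27, edgeR adjusted p = 0.0642) and was higher without sedentary 1 and 2 (0.82, edgeR adjusted p = 0.0328). With the pan-endocrine list as library size in these 8 libraries it did not pass (0.56, edgeR adjusted p = 0.154). Kcnip1, a further Kv4 partner, stayed between 35.6 and 47.8 CPM in the 8 libraries other than sedentary 1 and 2, which had 1.49 and 11.5 (edgeR adjusted p = 0.430). The ratio of Kcnip3 to Kcnip1 counts was 0.0281 to 0.0613 in sedentary 2 to 5, 0.804 in sedentary 1 and 0.0589 to 0.178 in exercise. Outside sedentary 1, only sedentary 5 and exercise 8 overlapped in this ratio.

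Kcnmb2 encodes the beta subunit that makes the large-conductance calcium-activated (BK) channel inactivate. It had 3.17, 12.3, 40.3, 42.0 and 36.5 CPM in sedentary and 52.7, 68.7, 75.2, 73.4 and 55.0 CPM in exercise libraries. The groups did not overlap, but the gene did not pass with all libraries (log2 fold change 1.27 ± 0.54 SE, edgeR adjusted p = 0.134). Without sedentary 1 and 2 it was higher by 0.74 (edgeR adjusted p = 0.00790), and with the pan-endocrine list as library size in those 8 libraries by 0.50 (edgeR adjusted p = 0.0770). The BK pore gene Kcnma1 had 4.78, 10.2, 38.8, 43.0 and 22.6 CPM in sedentary and 41.3 to 55.3 CPM in exercise libraries (edgeR adjusted p = 0.169, and 0.129 without sedentary 1 and 2). The ratio of Kcnmb2 to Kcnma1 counts was 0.662 to 1.61 in sedentary and 1.14 to 1.78 in exercise libraries, so it overlapped. Kcnn3, a small-conductance calcium-activated channel that sets the pause between bursts, had 3.41 to 72.6 and 56.4 to 91.1 CPM (edgeR adjusted p = 0.206). Of the 10 tested auxiliary genes 1 rose and 1 fell, and of the 6 calcium-activated pore genes 0 rose and 1 fell. Of all tested genes 2.44% rose and 11.4% fell.

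Kcnf1 belongs to the silent Kv subunits, which do not conduct alone and change the gating of other voltage-gated pores. Kcnf1 had 2.27, 6.22, 17.1, 22.9 and 17.4 CPM in sedentary and 40.7, 37.7, 36.5, 46.6 and 34.1 CPM in exercise libraries. Each exercise library lay above each sedentary library. With all libraries the log2 fold change was 1.57 ± 0.49 and the gene did not pass (SE, edgeR adjusted p = 0.0574). Kcnf1 was higher without sedentary 1 and 2 by 1.05 (edgeR adjusted p = 0.00147), and with the pan-endocrine list as library size in these 8 libraries by 0.84 (edgeR adjusted p = 0.00823). It also passed when sedentary 1 or sedentary 4 alone was left out (edgeR adjusted p = 0.0340 and 0.0284). Its highest levels were in exercise 9 and 6, as were the highest acinar sums, whose part was not tested.

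The window of Kcnf1 is shown because the gene was higher in every exercise library and had few CpG pairs there.
Kcnf1 (chr12:17176889-17177138, minus strand): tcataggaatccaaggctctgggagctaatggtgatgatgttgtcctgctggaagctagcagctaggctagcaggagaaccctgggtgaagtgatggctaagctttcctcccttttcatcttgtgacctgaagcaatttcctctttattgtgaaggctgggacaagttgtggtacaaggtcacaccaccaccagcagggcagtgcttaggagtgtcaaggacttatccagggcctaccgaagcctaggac
It held 1 CpG pair and none of the 7 motifs searched, which besides those named above were AGAACA, the letters of a glucocorticoid receptor site (16.1% of all windows and 13.6% of member windows), and the GATA letters AGATAA (9.99% and 3.03%).

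**Figure D4:**
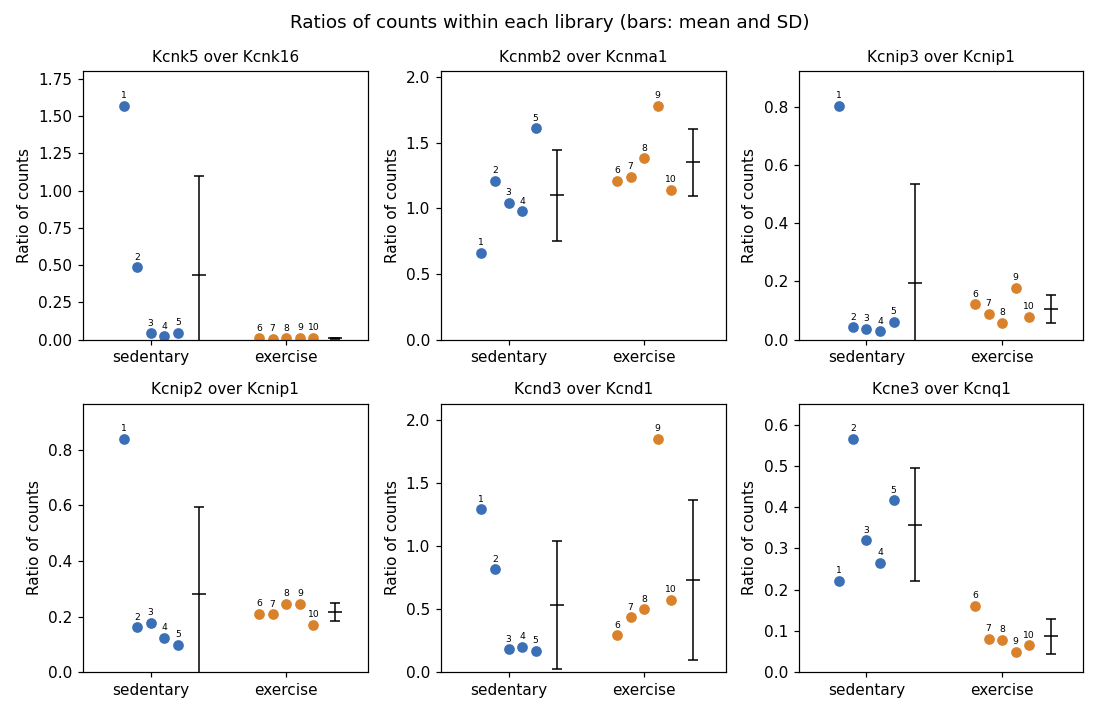
Ratios of counts of 2 members within each library, with library numbers beside the points and bars for the mean and SD of 5 libraries (bar ends below 0 are not drawn). Kcnk5 over Kcnk16 ran from 0.0219 to 1.57 in sedentary and from 0.00717 to 0.0129 in exercise libraries, and Kcne3 over Kcnq1 was lower in every exercise library.

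Of the voltage-gated pore genes, 1 of 11 tested rose and 0 fell, against 2.44% and 11.4% of all tested genes. Kcnd3 encodes a Kv4 pore of fast transient currents. It had 1.08, 1.20, 0.943, 0.864 and 0.734 CPM in sedentary and 1.12, 1.95, 1.61, 4.77 and 2.49 CPM in exercise libraries. Exercise 6 lay below sedentary 2, and exercise 9 was nearly 2 times the next highest library. It rose by 1.30 ± 0.39 on the log2 scale (SE, edgeR adjusted p = 0.0481). With the pan-endocrine list as library size over 10 libraries the direction turned (-0.90, edgeR adjusted p = 0.366). That scaling put the median of all genes at -2.25. In the 8 libraries without sedentary 1 and 2 it gave Kcnd3 a log2 fold change of 1.32 (edgeR adjusted p = 0.129). Library totals or no filter ended the call (edgeR adjusted p = 0.0744 and 0.0739). Leaving out any library other than exercise 6 ended the call (edgeR adjusted p up to 0.0880), as did leaving out sedentary 1 and 2 together (log2 fold change 1.51, edgeR adjusted p = 0.0625). Its largest value fell in exercise 9, the library with the highest acinar sum, and the part of acinar RNA was not tested. Kcnc4, a fast voltage-gated pore, had 0.179 to 1.03 CPM in sedentary and 1.09 to 3.48 CPM in exercise libraries and did not pass (log2 fold change 1.61, edgeR adjusted p = 0.0650). Kcnd2, the other common Kv4 pore, stayed under the count minimum, at 0.46 CPM or less in each library.

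**Figure D5:**
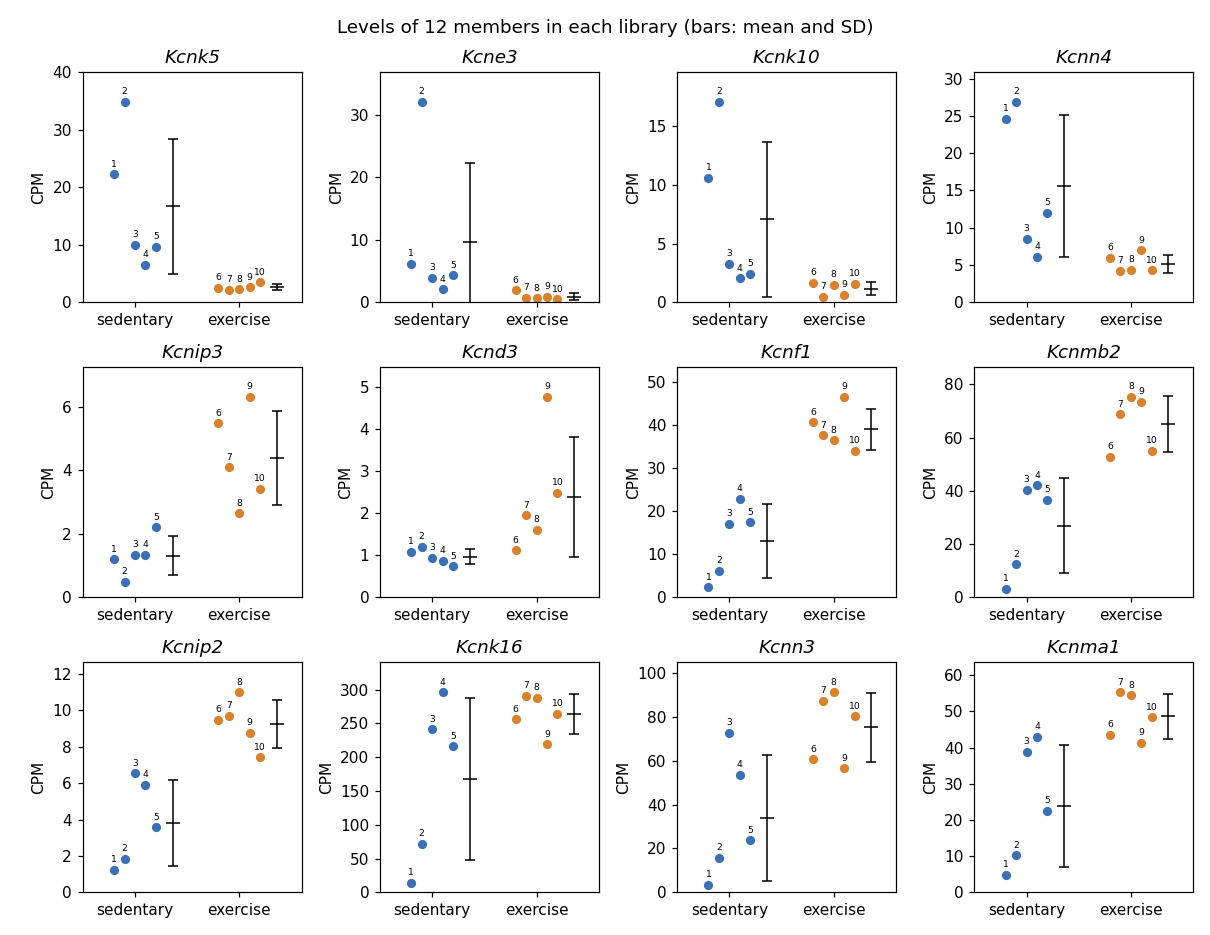
Level in CPM of 12 members in each library, with library numbers beside the points and bars for the mean and SD of 5 libraries (bar ends below 0 are not drawn). Sedentary 1 and 2 are the highest pair in the top row. They are the lowest pair for Kcnip2, Kcnk16, Kcnn3 and Kcnma1 in the bottom row, and for Kcnip3, Kcnf1 and Kcnmb2. Kcnip3, Kcnf1, Kcnmb2 and Kcnip2 are higher in every exercise library than in any sedentary library.

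The ether-a-go-go and Kv7 genes had 11 tested members, and 0 rose and 0 fell, against 2.44% and 11.4% of all tested genes. In this class 0 had an unadjusted p under 0.05 in edgeR, against 33.4% of all tested genes. DESeq2 and limma-voom called 0 of them. Kcnh2, whose channel repolarizes heart and endocrine cells, had 4.84, 14.3, 41.8, 60.3 and 44.5 CPM in sedentary and 40.4 to 53.1 CPM in exercise libraries (edgeR adjusted p = 0.420). Kcnh6, of the same subfamily, had 2.21 to 25.8 and 18.9 to 26.8 CPM (edgeR adjusted p = 0.330). Kcnh1 had 2.75, 7.10, 31.7, 34.1 and 18.5 CPM in sedentary and 11.5 to 25.5 CPM in exercise libraries. Its log2 fold change was 0.01 with all libraries and -0.54 without sedentary 1 and 2 (edgeR adjusted p = 0.989 and 0.226). Inward rectifiers, which hold the resting voltage, had 6 tested members, and 0 rose and 0 fell, against 2.44% and 11.4% of all tested genes. In this class 2 had an unadjusted p under 0.05 (edgeR), against 33.4% of all tested genes. Their log2 fold changes were -2.68 and -1.76, and 0.17 and -0.48 without sedentary 1 and 2. DESeq2 called 1 inward rectifier lower, and 2835 of 19633 genes. Kcnj6, a G-protein-gated pore, had 0.717 to 10.5 CPM in sedentary and 7.26 to 11.1 CPM in exercise libraries (edgeR adjusted p = 0.341). Kcnj12 had 0.478 to 5.99 and 4.44 to 7.81 CPM (edgeR adjusted p = 0.401). Kcnj5, also G-protein-gated, stayed at 0.403 CPM or less. The silent subunit Kcng3 had 0.0598 to 0.777 and 0.732 to 1.96 CPM (edgeR adjusted p = 0.0992). It had 10 counts in 2 sedentary and 5 exercise libraries. An unadjusted p under 0.05 (edgeR, either direction) was seen in 5 of 10 auxiliary and 3 of 3 silent genes tested. So it was in 2 of 11 voltage-gated, 2 of 8 leak and 1 of 6 calcium-activated genes, against 33.4% of all tested genes. The auxiliary count includes Kcnmb1 and the silent count Kcng3 and Kcns3. Their place among the members rests on the group where they are high, so they do not count as support. The silent genes also differed in direction, with Kcns3 lower and Kcnf1 and Kcng3 higher in exercise. DESeq2 called 3 auxiliary, 2 silent and 2 voltage-gated genes higher, and 1 auxiliary, 2 leak and 1 calcium-activated gene lower. Over all genes it called 966 higher and 2835 lower of 19633. Kcnmb1 and Kcng3 are among the auxiliary and silent genes called higher and again do not count as support.

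Levels can be compared between genes only per length, here as CPM per kilobase of the median coding transcript in GENCODE M21, which may differ from the authors' annotation. In the exercise group Kcnk16 was followed by Kcnmb2 at 26.2 ± 4.23, Kcnn3 at 26.0 ± 5.44 and Kcnip1 at 23.4 ± 2.34 CPM per kilobase (SD, n = 5), whose ranges overlapped. Next came Kcnk1 at 13.4 ± 1.35, Kcnh2 at 13.4 ± 1.41 and Kcnma1 at 13 ± 1.68, which overlapped as well. Kcnf1 at 8.17 ± 1.00, Kcnip2 at 7.71 ± 1.09 and Kcnh6 at 7.14 ± 1.28 formed a lower group whose neighbours did not differ beyond their spread.

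Other genes of potassium handling without a Kcn symbol were taken as lists of channel partners, pumps, cotransporters and related cation channels, 43 genes of which 31 were tested. Of these 0 rose and 1 fell (3.23%, against 11.4% of all tested genes), and 8 had an unadjusted p under 0.05 (25.8%, against 33.4% of all tested genes; edgeR). DESeq2 called 0 higher and 3 lower of 39, against 966 and 2835 of 19633 genes. Lrrc26, a gamma subunit that lets BK channels open in secretory epithelia, fell by 2.83 on the log2 scale (SE 0.73, edgeR adjusted p = 0.0311). It had 2.15, 6.28, 0.998, 0.734 and 1.42 CPM in sedentary and 0.0651 to 0.782 CPM in exercise libraries, highest in sedentary 2 as for Kcne3. It did not pass without sedentary 1 and 2 (log2 fold change -1.66, edgeR adjusted p = 0.0803). Abcc8 and Amigo1 were chosen after their values were seen. Abcc8, the sulfonylurea receptor of the beta cell KATP channel, had 36.8, 124, 408, 559 and 395 CPM in sedentary and 483 to 633 CPM in exercise libraries and did not pass (edgeR adjusted p = 0.276). Amigo1, a membrane partner of voltage-gated channels, had 7.65 to 44.7 and 45.7 to 58.5 CPM (edgeR adjusted p = 0.147).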

How the data were processed

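For each of 10 libraries the authors deposited estimated counts by Ensembl gene. Per the submitters' processing notes, fastp and kallisto were used. Versions, build and annotation: not given in the sources used here. Per the labels' protocols, libraries came from a stranded mRNA kit. Counts were rounded before testing, since 12.6% were fractional (tolerance 1e-06). Library totals lay between 15081922 and 23222704. Symbols came from a GENCODE M21 table, matching 48845 of 52178 genes. Genes were tested in R 4.3.3 with edgeR 4.0.16 (filter: minimum count 10, minimum total 15; trimmed mean of M-values, TMM; quasi-likelihood test; Benjamini-Hochberg). The fit was first tested on simulated data. Alternatives were other scalings and filters, DESeq2 1.42.0, limma-voom (limma 3.58.1), and leaving out libraries. Added after seeing the data was pan-endocrine scaling without sedentary 1 and 2. Named were members past the threshold, the 2 of most counts per class, and a preset of islet and epithelial channels; of the preset, Kcne2 is given with the closing values. The rule named 2 more members, which are not reported here. Members and lists were chosen with earlier results of these data known. Upstream windows are RefSeq's (GRCm38.p6), matched by symbol.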

Additional observations from a re-analysis of the deposited data

Results flagged for a closer look

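In exercise 9, Kcnh2 was at 40.4 CPM where the other exercise libraries had 50.2 to 53.1, and Kcnip1 was at 35.6 CPM where they had 43.3 to 46.4. In both genes the gap to the nearest library took most of the group's range on the log2 scale (0.798 and 0.744 of it, against a critical 0.710). These were the 2 library values that stood apart among 46 groups of 5 checked, and chance sets about 1 in 20 such groups apart. Exercise 9 also had the highest acinar sum of all libraries, 421000 CPM, and the lowest TMM factor, 0.669. The part of either in these values was not tested.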

How the results depend on the processing

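No paired analysis was possible because the groups share no replicate numbers. Members called higher and lower, 2 and 4 with TMM scaling over all libraries, were 1 and 8 with library totals, 0 and 12 with pan-endocrine scaling, 1 and 2 with that scaling without sedentary 1 and 2, 0 and 2 with a filter of 50 counts in 5 libraries (32 members tested), 7 and 5 with DESeq2, 1 and 0 with limma-voom, and 4 and 2 without sedentary 1 and 2. Without a filter 1 was higher. All genes higher and lower, 374 and 1745, were 159 and 4408 with library totals, 23 and 9181 with pan-endocrine scaling, 966 and 2835 with DESeq2 and 177 and 339 with limma-voom; 644 were higher without sedentary 1 and 2, and 148 when pan-endocrine scaling was also used. Partner genes lower, 1, were 8 with library totals, 13 with pan-endocrine scaling, 2 without a filter, 3 with DESeq2 and 0 with 50 counts in 5 libraries, limma-voom, or without sedentary 1 and 2 with either scaling; 1 was higher without sedentary 1 and 2. Leaving out 1 library gave 1 to 5 members higher, 1 to 5 lower, 132 to 889 genes higher, 800 to 2721 lower, and 0 partners higher and 0 to 4 lower. Library totals, upper-quartile and pan-endocrine scaling moved the median of all genes to -0.34, 0.11 and -2.25, and the last without sedentary 1 and 2 to -0.21. Named genes that changed sign had these log2 fold changes. With pan-endocrine scaling: Kcnd3 -0.90, Kcnh1 -0.90, Kcnh2 -0.32, Kcnh6 -0.29, Kcnip3 -0.15, Kcnj12 -0.13, Kcnj6 -0.08, Kcnk1 -1.71, Kcnk16 -0.10, Kcnk3 -0.73 and Kcnma1 -0.01. With it but without sedentary 1 and 2: Kcnh1 -0.81, Kcnh2 -0.18, Kcnh6 -0.02, Kcnip1 -0.10, Kcnj12 -0.15, Kcnj6 -0.03, Kcnk1 -0.16 and Kcnk16 -0.14. With library totals: Kcnh1 -0.33 and Kcnk1 -0.23. Kcnh1 was -0.54 and Kcnq1 0.02 without sedentary 1 and 2. With 1 library left out Kcnh1 lay between -0.27 and 0.34 and Kcnk1 between -0.06 and 0.26. With pan-endocrine scaling over 10 libraries, each of the values listed lay above the median of all genes, -2.25. Of the genes that changed sign, Kcnip3 and Kcnd3 had passed the threshold. The cause was not tested. Among the genes named with a test, levels under 1 CPM in some library limit Kcnc4, Kcnd3, Kcng3, Kcne3, Kcnk10, Kcnip3, Kcnj6, Kcnj12 and Lrrc26.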

Other observations

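The 33 candidates under the count minimum entered no comparison, and 4 of them stood out in sedentary 1. All but Kcne2 were picked after their values were seen. Kcnj16, an inward rectifier pore of kidney and stomach, had 17.6 CPM there and 0.0559 to 0.388 CPM in the other 9 libraries. Kcne2, the partner of Kcnq1 in the acid-secreting parietal cell, had 7.71 CPM there and 0.111 CPM or less elsewhere. Kcne1, another small partner of Kcnq1, had 1.25 CPM there and a count of 0 in every other library. Kcna3, the voltage-gated pore of lymphocytes, had 4.06 CPM there and 0.195 to 0.83 CPM elsewhere. The member Kcnj15, an inward rectifier pore, had 22.8 CPM in sedentary 1 and 0.515 to 1.5 CPM elsewhere, and the Kv1 beta subunit gene Kcnab2 had 33.0 CPM there and 1.37 to 9.74 CPM elsewhere. Beside these, Atp4a and Atp4b, the subunits of the gastric proton pump, had 404 and 224 CPM in sedentary 1 and at most 9.83 and 0.382 CPM in the other libraries. The lymphocyte list was also highest in sedentary 1, at 311 CPM, against 16.8 to 228 CPM elsewhere.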
